A study of Mus musculus with 24 samples.

Results

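The cytochromes P450 of the Cyp2 family and the Cyp3a subfamily were examined in the livers of mice fed fats that differed in their fatty acids. The genes were taken by name, as all those whose symbol begins with Cyp2 and a letter or with Cyp3a and that have a probe set of their own on the array, which gave 52 of the 18820 genes measured. Liver RNA came from 24 male mice on a C57Bl/6 background, 4 to 6 months old, with 8 mice in each diet group and a separate Affymetrix Mouse Gene 1.1 ST array per mouse. All diets were rich in fat, which supplied 45% of the energy, and were fed for 7 weeks. What differed was the source of the fat. The Saturated group ate cocoa butter, the Cis group palm olein and canola oils, and the Trans group soy oil that had been partially hydrogenated. No group received a low fat diet, so each value describes a liver on a high fat diet and each comparison is between types of fat. No transgene, deletion or drug is named for any group.

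P450 enzymes are haem proteins of the endoplasmic reticulum that insert an oxygen atom into their substrate, with electrons from NADPH-cytochrome P450 reductase. The Cyp2 and Cyp3a enzymes act on drugs and other foreign compounds, on steroids and bile acids, and on arachidonate and other fatty acids. In liver, many of their genes respond to the nuclear receptors CAR (Nr1i3) and PXR (Nr1i2), and several are expressed at unlike levels in male and female mice or along the axis from the portal to the central vein.

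Levels are RMA values, which are log2 probe set signals after background correction and quantile normalization, and "signal" below is the same value on a linear scale. Array signals depend on the probes, so no gene's level is set against another gene's. The array medians lay between 2.94 and 3.06 on the log2 scale, and each array correlated with the other arrays at a median r between 0.975 and 0.986. Markers of hepatocytes were present in every liver, with a summed signal of 48284 to 54657 over 13 genes, whereas all 6 kidney markers, 9 lymphocyte markers and 8 neutrophil markers had a mean signal under 20. The summed signal of the neutrophil markers nevertheless reached 101 in the Saturated livers. Its highest value was 36.6 in the Cis and 39.4 in the Trans livers.

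Of the 52 genes, 30 had a mean log2 level above that of a signal of 20, which the study used as a floor for its cell line arrays. This held for 27 genes at a signal of 100 and for 11 at a signal of 1000. The genes above 20 comprised Cyp2a5 and Cyp2a12, Cyp2b9, 10 of 13 Cyp2c genes, 7 of 10 Cyp2d genes, Cyp2e1, Cyp2f2, 3 of 6 Cyp2j genes, Cyp2r1, Cyp2u1 and 3 of 6 Cyp3a genes. Of the remaining genes, several such as Cyp2b10 and Cyp2a22 exceeded that level in some livers, and a difference in their mean is one of low signals. Genes that are said below to have a low signal are those under 20.

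**Figure D1:**
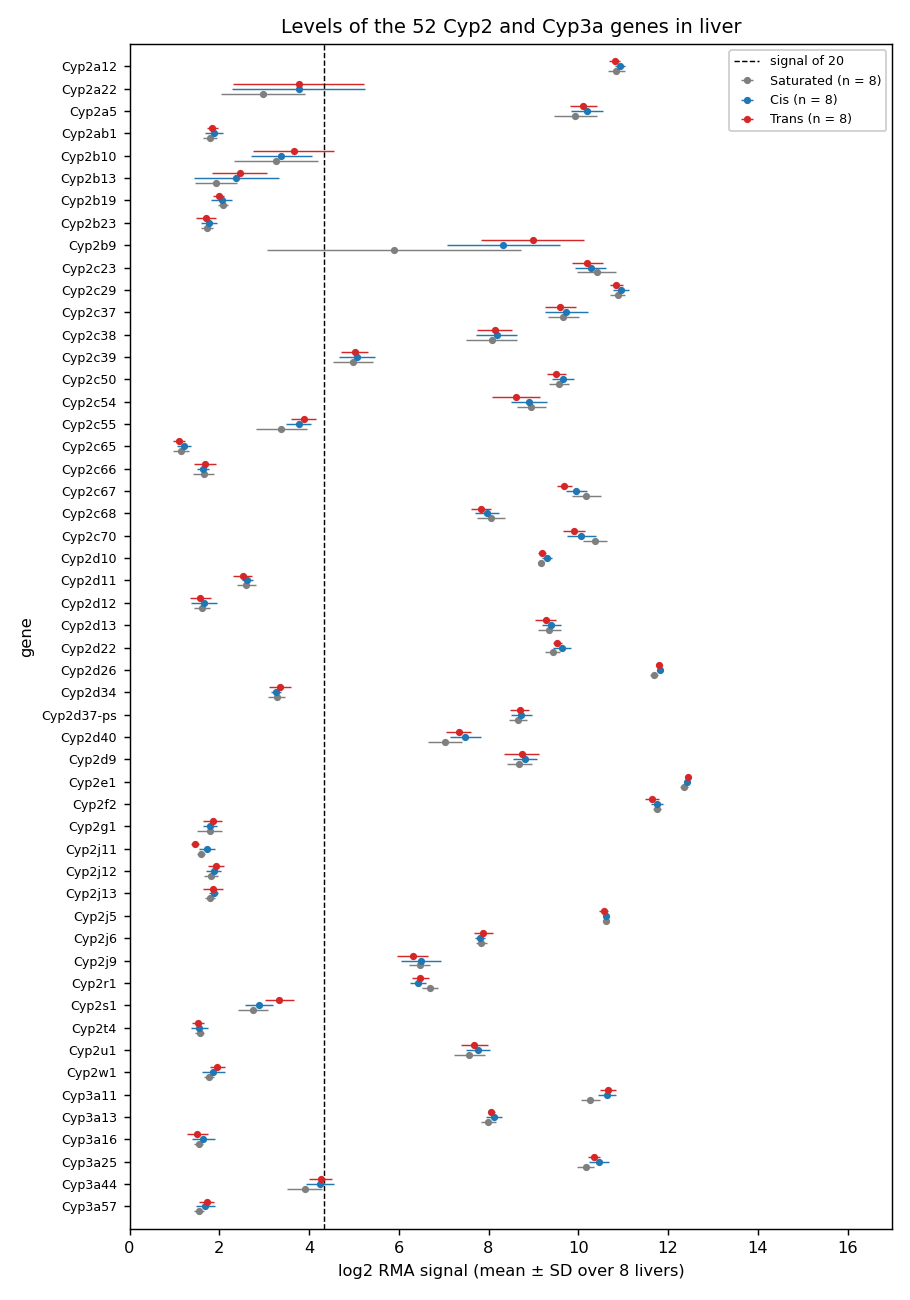
Mean log2 RMA signal ± SD of each of the 52 genes (rows) in the Saturated, Cis and Trans groups (8 livers each), with a dashed line at a signal of 20. The 3 diets nearly coincide for most genes, and Cyp2b9 in the Saturated group has the longest error bar, with an SD of 2.84.

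Near-identical family members can share probe signal. A further 5 probe sets list a member together with relatives. Cyp2a4, Cyp2c40, Cyp2c69, Cyp3a41a, Cyp3a41b and Cyp3a59 occur only on such shared probe sets, and they are described with them rather than as genes of their own.

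The sequence near the gene starts is shown for Cyp2b9, whose level varied most between livers, with its relatives Cyp2b13 and Cyp2b10, and for Cyp3a11, whose mean was lower in the Saturated livers than in both other groups, with its neighbour Cyp3a25. RefSeq sequence of the GRCm38.p6 build is given from 250 bases before to 50 bases after the annotated start, 5′ to 3′ along the gene, at chr7:26173159-26173458 for Cyp2b9, chr7:26061245-26061544 for Cyp2b13 and chr7:25897408-25897707 for Cyp2b10 (all plus strand), and at chr5:145879805-145880104 for Cyp3a11 and chr5:146009568-146009867 for Cyp3a25 (both minus strand). Capitals mark AGGTCA or AGTTCA on either strand, the core letters of sites that CAR, PXR and related nuclear receptors bind.
Cyp2b9: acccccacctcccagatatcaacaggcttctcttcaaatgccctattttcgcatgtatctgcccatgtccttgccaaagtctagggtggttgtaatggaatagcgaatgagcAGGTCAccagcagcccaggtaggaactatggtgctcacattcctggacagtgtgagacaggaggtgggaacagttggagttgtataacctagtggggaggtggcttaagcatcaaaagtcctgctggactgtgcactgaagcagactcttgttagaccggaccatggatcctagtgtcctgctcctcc
Cyp2b13: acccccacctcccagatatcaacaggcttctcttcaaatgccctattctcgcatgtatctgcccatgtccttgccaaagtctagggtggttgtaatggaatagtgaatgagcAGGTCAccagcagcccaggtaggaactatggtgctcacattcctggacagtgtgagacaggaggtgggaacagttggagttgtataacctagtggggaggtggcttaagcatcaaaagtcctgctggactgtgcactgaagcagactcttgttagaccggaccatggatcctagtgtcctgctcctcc
Cyp2b10: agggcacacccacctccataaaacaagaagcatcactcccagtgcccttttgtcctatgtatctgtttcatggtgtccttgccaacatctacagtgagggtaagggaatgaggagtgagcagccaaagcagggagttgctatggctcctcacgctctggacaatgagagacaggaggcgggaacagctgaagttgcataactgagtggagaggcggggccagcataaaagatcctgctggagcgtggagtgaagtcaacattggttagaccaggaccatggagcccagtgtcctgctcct
Cyp3a11: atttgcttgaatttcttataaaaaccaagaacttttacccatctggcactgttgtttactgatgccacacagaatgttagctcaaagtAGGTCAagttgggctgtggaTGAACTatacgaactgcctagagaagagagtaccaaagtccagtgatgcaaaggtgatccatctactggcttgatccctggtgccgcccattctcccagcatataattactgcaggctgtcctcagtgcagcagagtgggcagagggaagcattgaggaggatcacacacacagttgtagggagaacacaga
Cyp3a25: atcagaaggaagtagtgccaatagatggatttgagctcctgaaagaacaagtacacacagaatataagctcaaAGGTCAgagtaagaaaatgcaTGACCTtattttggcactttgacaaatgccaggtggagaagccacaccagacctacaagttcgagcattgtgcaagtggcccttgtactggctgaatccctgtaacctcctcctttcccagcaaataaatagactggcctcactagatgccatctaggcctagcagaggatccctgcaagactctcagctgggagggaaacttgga

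The Cyp2b9 and Cyp2b13 windows shared 298 of 300 bases (99.3%) and differed by T48C and C104T, written with the Cyp2b9 base first and with positions counted from 1 at the 5′ end of the window. Cyp2b10 was 77.2% identical to Cyp2b9 over 289 aligned bases, and Cyp3a11 was 67.3% identical to Cyp3a25 over 260. AGGTCA stood at positions 113 to 118 of both Cyp2b9 and Cyp2b13, at 89 to 94 of Cyp3a11 and, on opposite strands, at 74 to 79 and 95 to 100 of Cyp3a25. AGTTCA stood on the minus strand at 109 to 114 of Cyp3a11, and neither motif was found in the Cyp2b10 window. Of the 52 genes, 43 had a window in the RefSeq table, and 16 of them (37.2%) held AGGTCA on either strand, beside 16.3% of all 32851 windows. AGTTCA was found in 4 of the 43 (9.3%), beside 14% of all windows. The letters of a TATA box, TATAAA, were found in 21 of the 43 (48.8%), beside 13.6%. A gene of the family was counted if any of its windows held the letters, whereas the share over all counts single windows. A gene with several windows would have more chances of a match, so the shares are of unlike units. These are matches of letters in short windows and describe neither bound sites nor a cause of any difference.

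No gene of the family passed the adjusted threshold in any comparison. The limma fit with Benjamini-Hochberg adjustment over all 35556 probe sets called 0 of 52 genes at an adjusted p under 0.05 for Trans against Saturated, where 0.00844% of all probe sets were called. The count was also 0 of 52 for Trans against Cis (0.00281% of all probe sets), for Cis against Saturated (0%) and for the F test over the 3 diets (0.00281%). At an unadjusted p under 0.05, the F test gave 12 of 52 genes (23.1%), beside 7.14% of all probe sets. The smallest adjusted p of a family member was 0.26 for Trans against Saturated, 0.55 for Trans against Cis and 0.50 for Cis against Saturated. All differences below are therefore described by their size, error and unadjusted p, and none of them is called. The 3 comparisons use the same groups in pairs, so a low or high mean in the Saturated livers enters both comparisons with that diet.

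At an unadjusted p under 0.05, limma gave 10 of 52 genes (19.2%) for Trans against Saturated, beside 7.32% of all probe sets and 8.33% of all genes. The mean was higher in the Trans livers for 7 of these (13.5%, beside 3.79% of all probe sets), namely Cyp2b9, Cyp2c55, Cyp2d26, Cyp2s1, Cyp3a11, Cyp3a25 and Cyp3a44. It was lower for 3 (5.77%, beside 3.54%), namely Cyp2c67, Cyp2c70 and Cyp2r1. Among the genes above a signal of 20 the count was 7 of 30 (23.3%), beside 11.2% of all genes above that level. Tukey's post hoc test, which the methods name, gave 6 of 52 genes at p under 0.05, beside 3.32% of all probe sets. After Benjamini-Hochberg adjustment it gave 0.

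For Cis against Saturated the count was also 10 of 52 (19.2%), beside 6.57% of all probe sets and 6.89% of all genes. Means were higher in the Cis livers for Cyp2b9, Cyp2d10, Cyp2d22, Cyp2d26, Cyp2d40, Cyp3a11, Cyp3a25 and Cyp3a44, 8 genes or 15.4% beside 3.3% of all probe sets. They were lower for Cyp2c70 and Cyp2r1 (3.85%, beside 3.27%). Above a signal of 20 the count was 9 of 30 (30%), beside 8% of all genes there. Tukey's test gave 8 genes, beside 2.84% of all probe sets, and 0 after adjustment.

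For Trans against Cis the count was 4 of 52 genes (7.69%), near the background of 6.16% of all probe sets and 6.48% of all genes. Cyp2s1 had a higher mean in the Trans livers (1.92%, beside 3.05% of all probe sets), and Cyp2c67, Cyp2d10 and Cyp2j11 had a lower mean (5.77%, beside 3.12%). Above a signal of 20 there were 2 of 30 genes (6.67%), beside 7.22% of all genes there. Tukey's test gave 3 genes, beside 2.66% of all probe sets, and 0 after adjustment.

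The median log2 difference over the 52 genes was 0.04 for Trans against Saturated, 0.08 for Cis against Saturated and -0.06 for Trans against Cis, while the median over all genes was 0.00 in each. The mean was higher in the Trans than in the Saturated livers for 30 genes, higher in the Cis than in the Saturated livers for 41, and higher in the Trans than in the Cis livers for 16. Whole-liver RNA cannot tell a lower level per hepatocyte from a smaller share of hepatocytes. All 13 hepatocyte markers had a lower mean in the Trans than in the Saturated livers (median -0.05, summed signal 48284 to 51143 against 50004 to 54657). In the Cis livers 2 of the 13 had a higher mean than in the Saturated livers (median -0.03, summed signal 49404 to 52053). The part of these marker differences in the differences of the P450 genes was not tested.

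**Figure D2:**
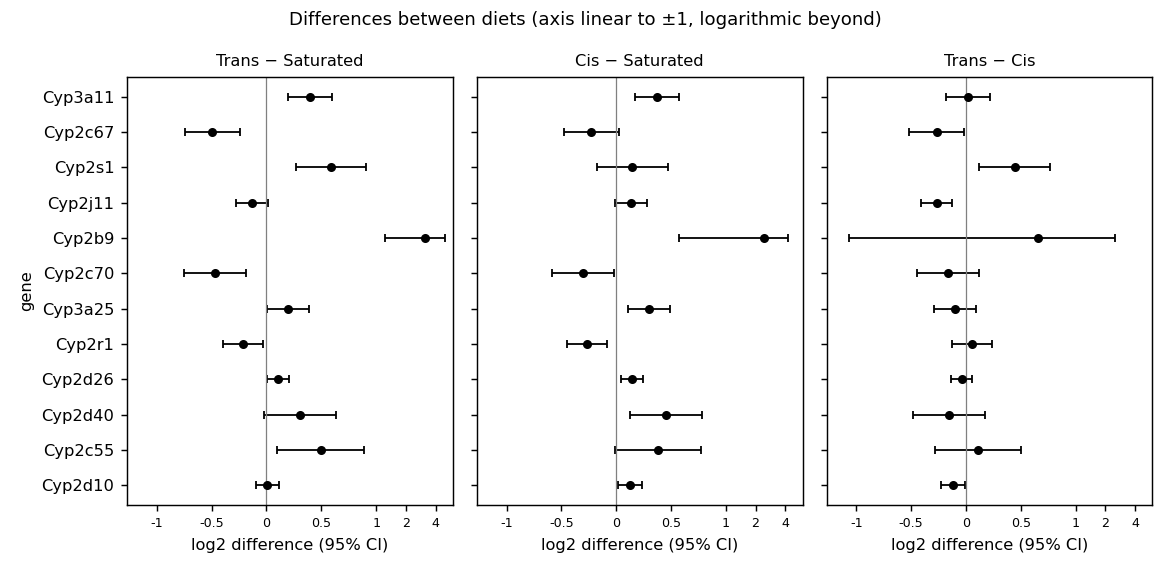
Log2 differences with 95% confidence intervals from limma for the 12 genes with the smallest F test p, ordered by it, in the 3 comparisons (24 livers, 8 per diet). Cyp3a11 lies above 0 in both comparisons with the Saturated group and at 0.02 for Trans against Cis, and the interval of Cyp2b9 is the widest in each panel.

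Cyp2b9, a steroid hydroxylase that is more abundant in female than in male mouse liver, varied more than any other gene of the family. In the Saturated livers its signal had a lowest value of 5.16, a median of 50.3 and a highest value of 912. The Cis livers ran from 100.2 over a median of 353 to 1184, and the Trans livers from 163 over a median of 605 to 1356. Every Trans and Cis liver was above a signal of 20, against 5 of 8 Saturated livers, and 5 Saturated livers lay below the lowest liver of both other groups.

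The groups still overlapped, and the Saturated livers were spread widely. Replicates 3, 4 and 6 stood at a signal of 10.8, 8.50 and 5.16, and replicates 5 and 7 at 50.6 and 49.9. Replicates 1, 2 and 8 stood at 912, 323 and 438, which is within the range of the Trans livers. On the log2 scale the SD was 2.84 in the Saturated group, 1.26 in the Cis group and 1.14 in the Trans group.

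The mean log2 level of Cyp2b9 was 3.09 ± 0.90 (SE) higher in the Trans than in the Saturated livers, with an adjusted limma p of 0.37, an unadjusted p of 0.00215 and an exact permutation p of 0.0143 (two-sided, unadjusted, 12870 splits of 8 against 8 livers). It was 2.43 ± 0.90 higher in the Cis than in the Saturated livers (limma adjusted p = 0.64, exact permutation p = 0.0476). Between Trans and Cis the difference was 0.66 with a 95% interval of -1.20 to 2.52 (limma adjusted p = 0.95, exact permutation p = 0.285). The limma fit uses a single spread for the 3 diets, whose own SDs are those given above. Leaving out 1 liver at a time moved the first difference between 2.59, without Saturated replicate 6, and 3.66, without Saturated replicate 1.

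Within the diets, the residual SD of Cyp2b9 was 1.91, the 2nd highest of all 18820 genes, for which the median was 0.19. Cyp2a22, which lies in the same cluster of chromosome 7, ranked 7th with 1.31. Cyp2b10 and Cyp2b13 ranked 39th and 83rd with 0.85 and 0.70. The median over the 52 genes was 0.21.

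**Figure D3:**
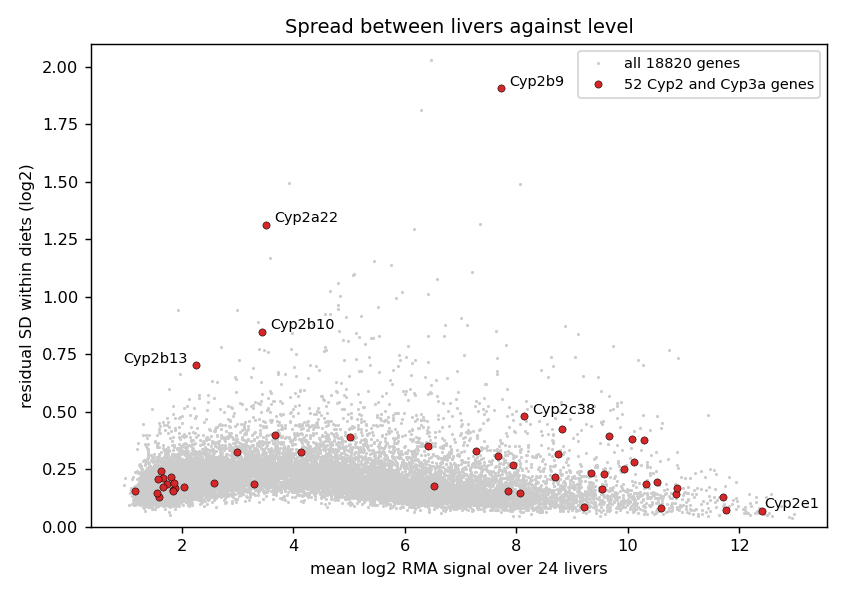
Residual SD within diets (log2) against mean log2 RMA signal over 24 livers, for all 18820 genes (grey) and the 52 Cyp2 and Cyp3a genes (red). Cyp2b9 at 1.91 and Cyp2a22 at 1.31 stand above nearly all genes of like level, while Cyp2e1 at 0.07 is at the lower end.

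Cyp2b13, the closest relative of Cyp2b9 and likewise more abundant in females, was low in most livers. Its signal was 3.00 at the lowest, 3.33 at the median and 7.75 at the highest in the Saturated livers, 3.55, 4.01 and 24.2 in the Cis livers and 2.87, 5.42 and 10.4 in the Trans livers. The groups overlapped, and Cis replicate 4 was the only liver above 20. Trans against Saturated differed by 0.53 ± 0.33 (SE, limma adjusted p = 0.79, exact permutation p = 0.0743).

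Across the 24 livers the log2 levels of Cyp2b9 and Cyp2b13 went together. Pearson's r was 0.64 (permutation p = 0.00132, adjusted over 3 pairs of genes 0.00396) and Spearman's rho was 0.83 (permutation p = 1e-05, the smallest that 100000 permutations can give, adjusted 3e-05). Without Saturated replicates 4 and 6, the livers farthest from the median of Cyp2b9, r was 0.68. Within the diets r was 0.68 in the Saturated, 0.70 in the Cis and 0.86 in the Trans group (n = 8 each, exact permutation p = 0.0382, 0.0284 and 0.00689). In the same order rho was 0.57, 0.50 and 0.86 (exact permutation p = 0.151, 0.216 and 0.0107). Saturated replicate 8 and Cis replicate 4, whose Cyp2b13 level lay far above the others of their diet, enter these values. Their windows at the gene start are nearly the same sequence, as shown above, and whether their probes bind each other's transcripts was not tested.

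Cyp2b10, the classic target of CAR, had a low signal in all diets. The Saturated livers ran from 4.08 over a median of 9.79 to 28.3, the Cis livers from 6.68 over 8.79 to 30.4 and the Trans livers from 5.09 over 10.7 to 32.5. The groups overlapped, and Trans against Saturated differed by 0.38 ± 0.40 (SE, limma adjusted p = 0.90). This difference was 0.19 without Trans replicate 6 and 0.60 without Saturated replicate 8. Over the 24 livers its r with Cyp3a11 was 0.12 (permutation p = 0.578, adjusted over the 3 pairs 0.578) and its rho 0.24 (permutation p = 0.261, adjusted 0.336), and without Trans replicate 6 and Cis replicate 4 r was -0.02. Within the diets r was -0.04, 0.21 and -0.07 in the Saturated, Cis and Trans groups.

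Cyp2a22 also varied widely between livers, with a difference of 0.78 ± 0.62 for Trans and 0.79 ± 0.62 for Cis against Saturated (limma adjusted p = 0.84 and 0.87). The lowest, median and highest signal was 2.84, 6.40 and 21.6 in the Saturated, 3.56, 14.8 and 64.5 in the Cis and 4.26, 12 and 64.0 in the Trans livers. It was selected for description here after its spread had been seen. Cyp2b19 and Cyp2b23, the remaining 2b genes, had a low signal, with differences of at most 0.09 in size.

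**Figure D4:**
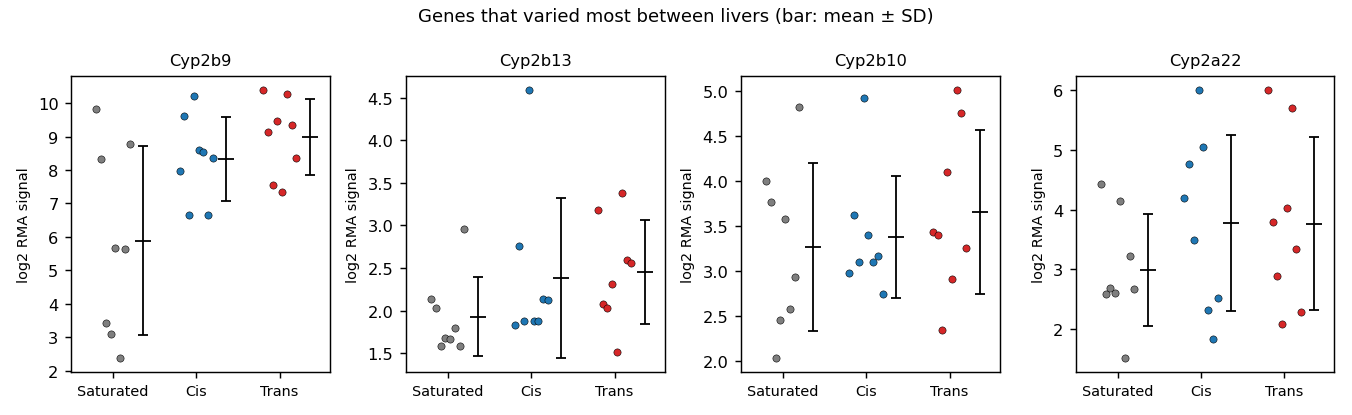
Log2 RMA signal of Cyp2b9, Cyp2b13, Cyp2b10 and Cyp2a22 in each liver, by diet, with the mean ± SD of 8 livers beside the points. For Cyp2b9, 5 Saturated livers lie below all Cis and Trans livers and 3 lie among them. The vertical scale differs between panels.

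Cyp3a11, the main drug-oxidizing 3a enzyme of adult mouse liver and a target of PXR, had a lower mean in the Saturated livers than in both other groups. Its signal was 1048 at the lowest, 1241 at the median and 1474 at the highest in the Saturated livers. In the Cis livers it was 1356, 1538 and 1998, and in the Trans livers 1404, 1681 and 1999. In both the Trans and the Cis group 5 of 8 livers were above the highest Saturated liver, and all 8 were above the Saturated mean.

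The log2 difference was 0.39 ± 0.10 (SE, 1.31-fold) for Trans against Saturated, with an adjusted limma p of 0.26, an unadjusted p of 4.6e-04 and an exact permutation p of 0.00186. For Cis against Saturated it was 0.37 ± 0.10 (1.29-fold, limma adjusted p = 0.50, exact permutation p = 0.00342). Trans and Cis differed by 0.02, with a 95% interval of -0.18 to 0.22. The smallest p that 12870 splits can give is 0.000155.

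Cyp3a25, a neighbour of Cyp3a11 on chromosome 5, likewise had its lowest mean in the Saturated livers, with smaller differences. The Saturated livers ran from 965 over a median of 1118 to 1434, the Cis livers from 1072 over 1449 to 1674 and the Trans livers from 1105 over 1326 to 1478. The groups overlapped widely, with 4 of 8 Cis livers and 1 of 8 Trans livers above the highest Saturated liver. The difference was 0.20 ± 0.09 for Trans and 0.30 ± 0.09 for Cis against Saturated (limma adjusted p = 0.67 and 0.60, exact permutation p = 0.0333 and 0.0149).

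Cyp3a44, a 3a gene that is more abundant in females, had a median signal of 14.2 in the Saturated, 18.5 in the Cis and 18.9 in the Trans livers. It differed from Saturated by 0.36 ± 0.16 in the Trans and 0.34 ± 0.16 in the Cis livers (limma adjusted p = 0.63 and 0.75). Cyp3a13 differed by 0.06 and 0.13, and Cyp3a16 and Cyp3a57 had a low signal with differences of at most 0.17 in size.

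Shared probe sets of the 3a genes also had their lowest mean in the Saturated livers. The pair that list Cyp3a11 with Cyp3a41a, Cyp3a41b and Cyp3a44 had a mean signal of 156 ± 21.5 (SD) and 134 ± 18.9 in the Saturated livers, 217 ± 31.0 and 185 ± 26.0 in the Cis livers and 201 ± 23.2 and 173 ± 20.1 in the Trans livers. For Cis against Saturated these gave 0.48 and 0.47 with an adjusted limma p of 0.17 for both. The probe set of Cyp3a25, Cyp3a57 and Cyp3a59 gave 0.29 for that comparison and 0.21 for Trans against Saturated. Since these probe sets contain Cyp3a11 and Cyp3a25, they are not separate evidence.

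The other PXR and CAR targets, mostly transporters and conjugating enzymes, gave 0 called genes in each comparison, and 12 of 15 measured had a higher mean in the Trans than in the Saturated livers (median 0.15) and likewise 12 of 15 in the Cis livers (median 0.08). At an unadjusted p under 0.05, 2 of 15 were higher in each of these comparisons, beside 3.79% and 3.3% of all probe sets. Abcc3, an exporter of conjugates, differed by 0.41 ± 0.11 for Trans and 0.32 ± 0.11 for Cis against Saturated (limma adjusted p = 0.31 and 0.64). Aldh1a1, a retinal dehydrogenase, differed by 0.25 and 0.29. Ephx1, the microsomal epoxide hydrolase, was counted with the epoxide hydrolases and differed by 0.22 and 0.29. Of the 7 genes of that list, 6 and 4 had a higher mean in these comparisons, with medians of 0.10 and 0.02. The receptor gene Nr1i2 itself differed by 0.16 ± 0.08 in both. Among the 26 P450 regulators, 13 and 14 had a higher mean, with medians of -0.01 and 0.02. Ephx1 and Nr1i2 are thus single genes of lists that were mixed. A single-gene probe set of Nr1i3 was not analysed here.

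The Cyp2c genes include arachidonate epoxygenases and a bile acid hydroxylase. The mean was higher in the Trans than in the Saturated livers for 4 of 13, with a median difference of -0.07, and higher in the Cis than in the Saturated livers for 7 of 13, with a median of 0.07. Cyp2c67 was the gene with the smallest unadjusted p of the subfamily. Its signal was 700, 1231 and 1374 at the lowest, median and highest in the Saturated livers, 770, 986 and 1243 in the Cis livers and 721, 808 and 988 in the Trans livers. Apart from Saturated replicate 5 at 700, every Saturated liver exceeded every Trans liver.

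The difference of Cyp2c67 was -0.49 ± 0.12 for Trans against Saturated (limma adjusted p = 0.26, unadjusted p = 4.6e-04, exact permutation p = 0.00389). It was -0.27 ± 0.12 for Trans against Cis and -0.23 ± 0.12 for Cis against Saturated (limma adjusted p = 0.80 for both). Without Saturated replicate 5 the first difference was -0.60 with an adjusted limma p of 0.0334, under the threshold. The probe set that Cyp2c67 shares with Cyp2c40, Cyp2c68 and Cyp2c69 gave -0.37 ± 0.08 for Trans against Saturated (limma adjusted p = 0.20), and Cyp2c68 on its own -0.22.

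Cyp2c70, which hydroxylates bile acids to form the muricholic acids of mice, had a signal of 1002, 1282 and 1742 at the lowest, median and highest in the Saturated livers. The Cis livers gave 704, 1070 and 1417, and the Trans livers 769, 977 and 1177. The ranges overlapped, and all 8 Trans livers were below the Saturated mean. Differences from Saturated were -0.47 ± 0.14 for Trans and -0.30 ± 0.14 for Cis (limma adjusted p = 0.37 and 0.74, exact permutation p = 0.00295 and 0.0609).

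Cyp2c55, which responds to activators of CAR and PXR, had a low signal with medians of 11.8, 13.3 and 13.7 in the Saturated, Cis and Trans livers. The Saturated livers reached from 6.02 to 16.8, the Cis livers from 11.1 to 18.6 and the Trans livers from 12.6 to 22.2, so that the groups overlapped. It differed by 0.49 ± 0.19 for Trans and 0.38 ± 0.19 for Cis against Saturated (limma adjusted p = 0.58 and 0.78, exact permutation p = 0.0505 and 0.114).

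Cyp2c29, an inducible epoxygenase, ran from 1451 over a median of 1918 to 2209 in the Saturated livers, from 1506 over 2006 to 2231 in the Cis livers and from 1539 over 1830 to 2108 in the Trans livers. The ranges nearly coincided, and its 3 differences lay between -0.11 and 0.08. Cyp2c23, Cyp2c37, Cyp2c38, Cyp2c39, Cyp2c50 and Cyp2c54 differed by at most 0.33 in size, the most being -0.33 for Cyp2c54 in Trans against Saturated, at an unadjusted limma p of 0.114. Cyp2c65 and Cyp2c66 had a low signal.

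Among the Cyp2d genes, 9 of 10 had a higher mean in the Cis than in the Saturated livers, and 4 of the 10 were higher at an unadjusted p under 0.05, beside 3.3% of all probe sets. Within the diets their spread differed, with a residual SD of 0.07 for Cyp2d26 and 0.33 for Cyp2d40. Cyp2d26 had a signal of 3065, 3227 and 3607 at the lowest, median and highest in the Saturated livers, 3438, 3671 and 3783 in the Cis livers and 3324, 3546 and 3760 in the Trans livers. All Cis and Trans livers were above the Saturated mean, and 5 and 3 of them were above the highest Saturated liver. The differences were 0.14 ± 0.05 for Cis and 0.10 ± 0.05 for Trans against Saturated (limma adjusted p = 0.63 and 0.64, exact permutation p = 0.00311 and 0.0264).

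Cyp2d40 differed more and varied more. Its signal was 93.5, 135 and 185 at the lowest, median and highest in the Saturated livers, 127, 184 and 238 in the Cis livers and 120, 164 and 225 in the Trans livers. The groups overlapped, with 4 Cis livers above the highest Saturated liver. Against Saturated it was 0.45 ± 0.16 for Cis and 0.30 ± 0.16 for Trans (limma adjusted p = 0.64 and 0.71, exact permutation p = 0.0264 and 0.0884).

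Cyp2d10 had a higher mean in the Cis livers than in both other groups. The signals were 544, 575 and 612 in the Saturated, 596, 610 and 714 in the Cis and 548, 570 and 660 in the Trans livers at the lowest, median and highest. Cis against Saturated gave 0.13 ± 0.05 and Trans against Cis -0.12 ± 0.05 (limma adjusted p = 0.70 and 0.80, exact permutation p = 0.00637 and 0.0348). Cyp2d22 differed by 0.21 for Cis against Saturated at an unadjusted limma p of 0.0179. Cyp2d9, Cyp2d13 and the pseudogene Cyp2d37-ps differed by at most 0.12 in size, and Cyp2d11, Cyp2d12 and Cyp2d34 had a low signal.

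**Figure D5:**
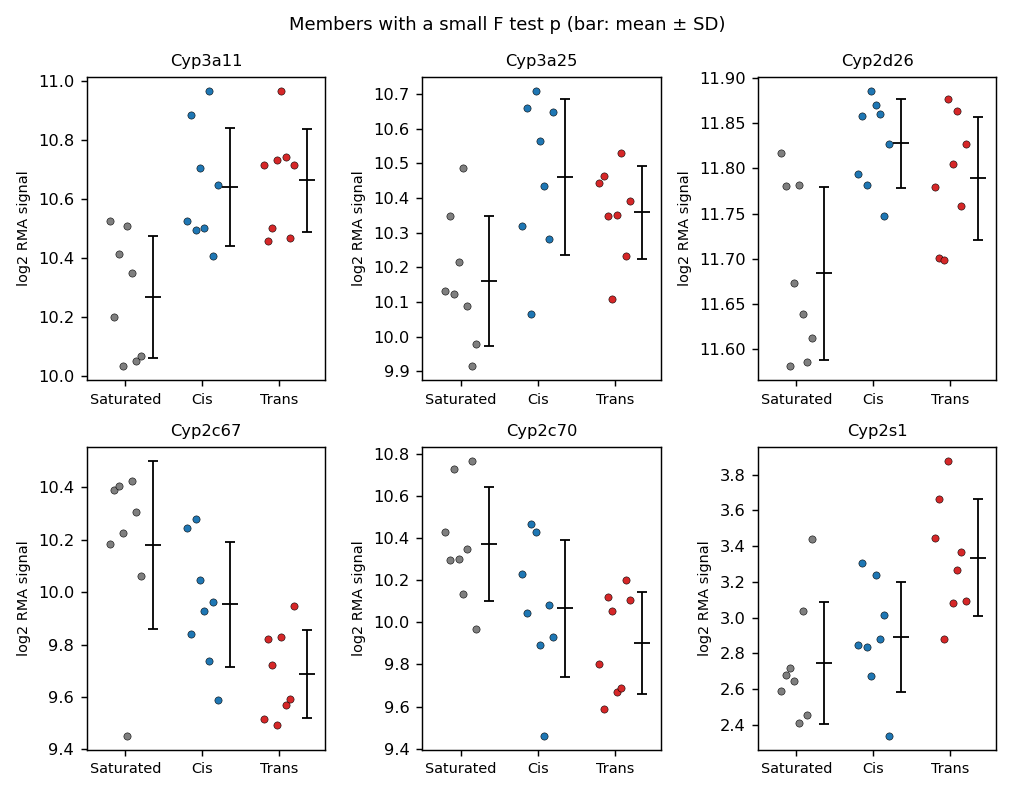
Log2 RMA signal of Cyp3a11, Cyp3a25, Cyp2d26, Cyp2c67, Cyp2c70 and Cyp2s1 in each liver, by diet, with the mean ± SD of 8 livers beside the points. The Saturated livers are mostly the lowest for the first 3 genes and mostly the highest for Cyp2c67 and Cyp2c70, with Saturated replicate 5 at 9.45 an exception in Cyp2c67. The vertical scale differs between panels.

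Cyp2e1, which oxidizes ethanol, acetone and fatty acids around the central vein, was among the steadiest genes of the family. Its signal was 4656, 5356 and 5597 at the lowest, median and highest in the Saturated livers, 5178, 5521 and 5757 in the Cis livers and 5236, 5477 and 5892 in the Trans livers. The ranges overlapped, and over all 24 livers the highest value was 1.27 times the lowest. Trans and Saturated differed by 0.08 with a 95% interval of -0.02 to 0.17 (limma adjusted p = 0.76, exact permutation p = 0.0654).

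Cyp2f2, a periportal enzyme known for naphthalene oxidation, had a signal of 3122, 3530 and 3667 at the lowest, median and highest in the Saturated livers, 2855, 3477 and 3942 in the Cis livers and 2473, 3302 and 3472 in the Trans livers. The groups overlapped, and Trans against Saturated gave -0.11 ± 0.07 (limma adjusted p = 0.79), or -0.06 without Trans replicate 1. Its r with Cyp2e1 over the 24 livers was -0.20 (permutation p = 0.34, adjusted over the 3 pairs 0.511), and rho was -0.21 (permutation p = 0.336, adjusted 0.336). Without Saturated replicates 7 and 8 r was -0.05, and within the diets it was -0.34, -0.77 and 0.58 in the Saturated, Cis and Trans groups (n = 8 each, exact permutation p = 0.435, 0.0202 and 0.107). In the same order rho was -0.10, -0.64 and 0.57 (exact permutation p = 0.840, 0.0962 and 0.151). Both r and rho were thus below 0 in the Saturated and Cis groups and above 0 in the Trans group. The difference between the groups was not tested.

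The other genes that mark zones of the lobule were counted beside them. None of 14 pericentral and 11 periportal genes was called by adjusted p. In Trans against Saturated 9 of 14 pericentral genes had a higher mean (median 0.03), against 2 of 11 periportal genes (median -0.16). At an unadjusted p under 0.05, 4 of the 11 periportal genes and 1 of the 14 pericentral genes were lower, and 0 were higher. Of all probe sets, 3.54% were lower and 3.79% higher in that comparison. Cyp1a2, a pericentral P450 outside the family, differed by -0.58 ± 0.13 for Trans against Saturated and -0.40 ± 0.13 for Trans against Cis (limma adjusted p = 0.20 and 0.69). Etnppl, a periportal phospholyase, differed by -0.63 and -0.51.

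Cyp2j5, an arachidonate epoxygenase, had a signal of 1415, 1579 and 1646 at the lowest, median and highest in the Saturated, 1450, 1581 and 1716 in the Cis and 1306, 1555 and 1613 in the Trans livers. The ranges nearly coincided, and the differences were at most 0.06 in size. Cyp2j6 and Cyp2j9 differed by at most 0.19, and Cyp2j12 and Cyp2j13 had a low signal. Cyp2j11 was also low, with medians of 2.97, 3.27 and 2.73 in the Saturated, Cis and Trans livers, lowest values of 2.75, 2.73 and 2.47 and highest values of 3.40, 3.85 and 3.01. The groups overlapped, and its difference of -0.27 ± 0.07 for Trans against Cis (limma adjusted p = 0.55, exact permutation p = 0.00264) is of a signal of about 3.

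Cyp2a12, which oxidizes steroids and bile acids, had a signal of 1536, 1905 and 2174 at the lowest, median and highest in the Saturated, 1671, 1993 and 2125 in the Cis and 1530, 1836 and 1995 in the Trans livers. The groups overlapped, and the differences lay between -0.13 and 0.09. Cyp2a5, the coumarin hydroxylase, differed by 0.18 ± 0.18 for Trans and 0.26 ± 0.18 for Cis against Saturated, and the probe set it shares with Cyp2a4 differed by 0.18 and 0.30.

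Cyp2r1, a vitamin D 25-hydroxylase, had its highest mean in the Saturated livers. Signals at the lowest, median and highest were 80.0, 106 and 120 in the Saturated, 68.8, 87.2 and 98.6 in the Cis and 71.5, 87.6 and 113 in the Trans livers. The groups overlapped, and all 8 Cis livers and 7 of 8 Trans livers were below the Saturated mean. Differences from Saturated were -0.27 ± 0.09 for Cis and -0.21 ± 0.09 for Trans (limma adjusted p = 0.64 and 0.62, exact permutation p = 0.00917 and 0.0314).

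Cyp2s1, which is expressed mostly in epithelia outside the liver, had its highest mean in the Trans livers, at a low signal. Its lowest, median and highest signal was 5.31, 6.33 and 10.8 in the Saturated, 5.05, 7.27 and 9.87 in the Cis and 7.36, 9.97 and 14.7 in the Trans livers. The groups overlapped, with 3 Trans livers above the highest Saturated liver and 4 above the highest Cis liver. It differed by 0.59 ± 0.16 from Saturated and by 0.44 ± 0.16 from Cis (limma adjusted p = 0.32 and 0.72, exact permutation p = 0.00466 and 0.0135).

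Markers of other liver cells were counted beside it. For smooth muscle, the Trans mean was above the Saturated mean for 7 of 7 markers, with a median of 0.39. Their summed signal was 63.9 to 213 in the Trans and 58.3 to 84.3 in the Saturated livers. Of these markers, 3 had an unadjusted p under 0.05, beside 3.79% of all probe sets that were higher. The Trans mean was also above the Cis mean for 7 of 7 (median 0.41, summed signal 54.1 to 94.6 in the Cis livers). However, 6 of the 7 had a mean signal under 20. The 6 cholangiocyte markers had a summed signal of 68.0 to 95.1 in the Trans and 63.9 to 107 in the Saturated livers, with Krt7, Krt19, Epcam and Cftr under 20. Their part in the difference of Cyp2s1 was not tested. Cyp2u1, a fatty acid hydroxylase, differed by at most 0.19, and Cyp2ab1, Cyp2g1, Cyp2t4 and Cyp2w1 had a low signal with differences of at most 0.18.

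Genes that act on the P450 system were counted in the same way, and none of them was called by adjusted p. Among 26 P450 regulators, 1 was higher and 2 were lower at an unadjusted p under 0.05 for Trans against Saturated. Of all probe sets, 3.79% were higher and 3.54% lower, and the median of the regulators was -0.01. Foxa3, a hepatocyte transcription factor, differed by -0.50 ± 0.18, Ppargc1a, a coactivator of fasting metabolism, by -0.33 ± 0.14 and Hlf, a clock-controlled factor, by 0.22 ± 0.10. For Cis against Saturated Ppargc1a differed by -0.51 and Hlf by 0.30.

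Of 15 genes for electron transfer and haem, 4 were higher at an unadjusted p under 0.05 for Cis against Saturated and 0 were lower. These were Cpox and Alad of haem synthesis, cytochrome b5 (Cyb5a), which passes electrons to P450 enzymes, and Blvrb, a biliverdin reductase, with differences of 0.21, 0.18, 0.12 and 0.18. In Trans against Saturated 0 were higher and 1 was lower, beside 3.79% and 3.54% of all probe sets. Alas1, the first enzyme of haem synthesis, differed by -0.82 ± 0.37 for Trans against Cis (limma adjusted p = 0.80).

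Sex-biased genes outside the family were counted because Cyp2b9, Cyp2b13 and Cyp3a44 are female-biased, and 0 of them were called in any comparison. The members of the family itself were not sorted by sex bias, so those named do not stand for all of its sex-biased genes. Outside the family, all 14 male-biased genes had a lower mean in the Trans than in the Saturated livers (median -0.26). Of these, 1 had an unadjusted p under 0.05, beside 3.54% of all probe sets that were lower. In the Cis livers 13 of 14 had a lower mean than in the Saturated livers (median -0.16). Slco1a1, a male-biased organic anion transporter, differed by -0.86 ± 0.40 for Trans against Saturated and Hsd3b5, a male-biased steroid enzyme, by -1.80 ± 0.96 (limma adjusted p = 0.65 and 0.71). Of 15 female-biased genes, 9 had a higher mean in the Trans than in the Saturated livers (median 0.05). At an unadjusted p under 0.05 there was 1, beside 3.79% of all probe sets that were higher. This was Hao2, at 0.56 ± 0.27 and a log2 level of 2.31. Of the 15 female-biased genes, 8 had a mean signal above 20, against 13 of the 14 male-biased genes.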

How the data were processed

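Whole-transcript arrays were run on liver RNA of 24 mice, and RNA was accepted above an integrity number of 8. The authors normalized the scans by RMA (per the labels and the methods), and the deposited values are log2 signals of 35556 probe sets. Of these, 21218 list a single gene, 1881 several and 12457 none. According to the methods, probes were assigned to gene identifiers, but the values analysed here are listed by the probe sets of the array design. Each gene was given by its single-gene probe set of highest mean. Gene symbols came from the platform annotation, and 52 of 52 identifiers matched RefSeq.

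Statistics used limma 3.58.1 under R 4.3.3. One linear model held all 24 livers and the diets as groups (21 residual degrees of freedom), with tests two-sided and Benjamini-Hochberg adjustment over all probe sets within a comparison, at a threshold of 0.05. Exact permutation tests compared group means over 12870 splits and are unadjusted, and 57 of them were run. Intervals are at the 95% level. The number of arrays limits the precision. A signal "above 20" refers to the mean log2 value.

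Described in full are the 12 genes with the smallest F test p, the 8 of highest mean and those of 3 pairs fixed for correlation. A pair with Cyp2a4 was left out because it has no single-gene probe set. The genes and lists were chosen with earlier results of these data known. Lists besides those in the report were epoxide hydrolases and flavin monooxygenases, Cyp1 and Cyp4 P450s, acute phase genes and markers of other cell types. Alternatives were eBayes with trend and robust estimation, a replicate block, a filter at a signal of 20, fits on the compared diets alone, array weights, repeated quantile normalization, median centring, Tukey's test, the mean of a gene's probe sets, adding shared probe sets, and leaving out livers. On simulated data for Trans against Saturated with 35556 probe sets, the fit recovered 62% of probe sets changed by 0.5 on the log2 scale, 94% at 1, 98% at 1.5 and 100% at 2. The simulation held independent normal noise and 50 changed probe sets at each size. The adjusted p depends on how many probe sets change, and in the measured comparison 0.00844% were called. The recovered shares are therefore not the chance of a call in these livers.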

Additional observations from a re-analysis of the deposited data

Results flagged for a closer look

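In 7 of 57 groups (19 genes in 3 diets) a single liver lay far from the other 7 of its diet. For independent groups of normally distributed values, chance gives about 1 in 20. These groups reuse the same livers and hold related genes, so the count cannot be read against that rate. Values are log2 RMA signals. Cis replicate 4 was the highest for Cyp2b13 at 4.59, with the others between 1.83 and 2.75, and also for Cyp2b10 at 4.93, with the others between 2.74 and 3.63. Saturated replicate 8 was the highest for Cyp2b13 at 2.95, with the others between 1.58 and 2.14. Trans replicate 1 was the highest for Cyp2c55 at 4.47, beside 3.66 to 4.04, and the lowest for Cyp2f2 at 11.27, beside 11.59 to 11.76. Cis replicate 6 was the lowest for Cyp2c29 at 10.56, beside 10.88 to 11.12. Saturated replicate 5 was the lowest for Cyp2c67 at 9.45, beside 10.06 to 10.42.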

How the results depend on the processing

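Over 35 alternatives, 2136 of 2175 values kept their direction and their side of the threshold or, for counts and medians, stayed close to the reported value. For a median, close meant within 0.0495, the spread of the family median between livers. This is wider than the reported median of 0.038 for Trans against Saturated, which was -0.001 without Trans replicate 5. As no gene was called, a gene's value had only to keep its sign and stay uncalled. Among single genes, the sign turned for 30 values of 7 differences, all of them at most 0.11 in reported size and not called. Cyp2c67 in Trans against Saturated passed the threshold without Saturated replicate 5, at -0.60 with an adjusted limma p of 0.0334, and the count of called genes there was then 1 instead of 0. Leaving out each liver in turn gave 0 to 1 called genes for Trans against Saturated and 0 for Trans against Cis and for Cis against Saturated. The counts at an unadjusted p under 0.05 then ranged from 7 to 12, from 2 to 6 and from 8 to 12 in that order. The share of all probe sets was not taken for these fits, so whether the counts exceed it is not known. The medians ranged from -0.00 to 0.06, from -0.08 to -0.04 and from 0.05 to 0.11. For Trans against Cis the count was 2 instead of 4 without Trans replicate 1, 4, 6 or 7 or without Cis replicate 4, and 2 among genes above a signal of 20, where 30 of the 52 were tested. Tukey's test gave 6 instead of 10 for Trans against Saturated. Of the differences whose sign turned, Trans against Cis ranged from -0.0591 to 0.389 for Cyp2b13 and from -0.0221 to 0.0676 for Cyp3a11 when livers were left out, and array weights gave -0.0272 and -0.00535. Cis against Saturated ranged from -0.0280 to 0.0385 for Cyp2f2, from -0.111 to 0.331 for Cyp2b10 and from -0.00686 to 0.0310 for Cyp2j5. For Cyp2f2, array weights gave -0.0217 and a repeated quantile normalization -0.0147. Without the livers of lowest correlation, Trans replicate 4 and Cis replicate 8, Cyp2f2 was at -0.00151 and Cyp2j5 at -0.00374. Trans against Saturated ranged from -0.0818 to 0.00788 for Cyp2c29 and from -0.0176 to 0.0207 for Cyp2d10. The cause of these changes was not tested.

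The labels number the livers 1 to 8 in each diet and state no pairing, and no clear sign of one was seen. The deviations of same-numbered livers from their group means correlated between -0.07 and 0.09 in 24 pairs, and 4 livers correlated best with a liver of their own number. With the replicate number as a block, 0 genes were called in every comparison and 10, 3 and 10 genes had an unadjusted p under 0.05 for Trans against Saturated, Trans against Cis and Cis against Saturated, and the block changed no call. For genes below a signal of 20, the distance to background limits what a difference means.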

Other observations

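Other P450 genes and the acute phase genes showed 0 calls by adjusted p. In Cyp1 and Cyp4, 7 of 13 genes had a higher mean in the Trans than in the Saturated livers (median 0.00). At an unadjusted p under 0.05, 2 were lower and 1 was higher, beside 3.54% and 3.79% of all probe sets. Besides Cyp1a2, the lower gene was Cyp4f14, a leukotriene and vitamin E hydroxylase, at -0.48 ± 0.12 (SE, limma adjusted p = 0.26), and Cyp4f15 was higher at 0.21 ± 0.10. Cyp4f14 also differed by -0.35 for Trans against Cis. Of 7 epoxide hydrolases and flavin monooxygenases, 6 had a higher mean in the Trans than in the Saturated livers and 0 had an unadjusted p under 0.05. In that comparison 4 of 19 acute phase genes were higher and 1 was lower at an unadjusted p under 0.05. Of all probe sets, 3.79% were higher and 3.54% lower. Orm1, which encodes an acid glycoprotein, differed by 0.30 ± 0.07 for Trans against Cis (limma adjusted p = 0.55).

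Among markers of other cells, 1 of 12 Kupffer cell genes had a higher mean in the Trans than in the Saturated livers (median -0.23) and 0 of 12 in the Cis livers (median -0.21). All 8 genes of recruited macrophages and all 12 endothelial genes had a higher mean in the Trans than in the Cis livers (medians 0.32 and 0.10), as did 8 of 12 stellate cell genes (median 0.16). At an unadjusted p under 0.05, 3, 3 and 5 genes were higher there in that order, and 1 stellate cell gene was lower. Of all probe sets, 3.05% were higher and 3.12% lower. In Trans against Saturated, 7 of 8, 9 of 12 and 7 of 12 had a higher mean (medians 0.13, 0.08 and 0.07). A mean signal above 20 was found for 4 of the 8 macrophage, 11 of the 12 endothelial and 10 of the 12 stellate cell genes. Of 6 adipocyte genes, 6 had a higher mean in the Trans than in the Saturated livers (median 0.15), 5 of them with a mean signal under 20, and of 4 exocrine pancreas genes 2 did (median 0.01).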
